A study of Mus musculus with 6 samples.

Results

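The genes described here encode the interleukin-6 (IL-6) family signaling chain in mouse liver, namely the ligands Il6, Osm and Lif, the receptor chains Il6ra, Il6st, Osmr and Lifr, the kinase Jak1, the transcription factor Stat3 and its feedback inhibitor Socs3. They were chosen by symbol, and all 10 were among the 20140 genes of the count table. Bulk polyadenylated RNA was sequenced from whole livers on day 21, with 2 livers in each of 3 groups. The sham group, which the labels also call control, received PBS. The other groups, labelled intra-C and intra-S, carried CT26, a mouse colorectal carcinoma line of BALB/c origin. The study describes a cecal CT26 model, which was premetastatic on that day, and a splenic CT26 model with liver metastases, both in BALB/c mice aged between 6 and 10 weeks. The labels do not spell out the letters, so reading intra-C as cecal and intra-S as splenic rests on the study's description. The study's methods also give more CT26 cells for the orthotopic than for the intrasplenic model. Route of injection, cell number and presence of metastases therefore cannot be told apart. Reads from tumor cells in a liver cannot be separated from host reads, because both carry the mouse genome.

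IL-6 binds its own receptor chain IL-6R (Il6ra) and then the shared signaling chain gp130 (Il6st), oncostatin M (Osm) signals through gp130 paired with OSMR, and leukemia inhibitory factor (Lif) through gp130 paired with LIFR. These complexes activate JAK kinases, which phosphorylate STAT3, and STAT3 then induces target genes that include Socs3, an inhibitor that binds gp130 and the kinase and damps the signal. In hepatocytes this pathway is known for driving acute phase protein genes. RNA levels do not measure phosphorylation of STAT3 or the amount of any protein.

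The libraries held between 32838321 and 43368309 counted reads. CPM values are counts scaled by library totals that were adjusted with TMM, and the 3 counts that may hide behind an observed 0 correspond to 0.0679 to 0.0928 CPM, depending on the library (counting error only). Levels of the 10 genes were compared with each other in TPM, which is also scaled by gene length, and the gene that leads a marker list is the one with the highest CPM, which is not scaled by length. Calls are those of edgeR's quasi-likelihood test over 16370 genes, with 0.05 as the limit for p-values adjusted by Benjamini and Hochberg. The labels do not say whether the livers of a group came from separate animals, so the p-values measure the spread between these livers only. The intra-S livers differed more from each other than the other pairs did. Among 9283 genes with at least 5 CPM on average, 17.5% differed over 2-fold between the intra-S livers, against 3.22% between the intra-C livers and 1.20% between the sham livers. Hepatocyte markers, led by Alb, were abundant in every liver, at a summed 121722 to 191488 CPM, of which Alb made up most. Of the 10, 1 was called higher and 1 lower in intra-C livers and 2 lower in intra-S livers against sham.

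Both tumor groups had more Stat3, Socs3 and Osmr RNA and less Lifr RNA than sham livers, and intra-C livers also had more Il6st RNA. Of the 9 genes tested, 5 were called between intra-C and sham livers (4 higher, 1 lower), where 7.30% of all tested genes were called (4.92% higher, 2.38% lower). Between intra-S and sham livers 4 were called (3 higher, 1 lower), where 10.7% of all tested genes were called (6.78% higher, 3.95% lower). Without adjustment, 6 and 7 of the 9 had a p under 0.05, as did 27.0% and 30.2% of all tested genes. The livers of intra-C and sham did not overlap, by CPM, in any of the 9 genes (8 higher, 1 lower), but with 2 livers per group this was also so for 34.4% (higher) and 34.0% (lower) of all tested genes. Those of intra-S and sham did not overlap in 8 of the 9 (7 higher, 1 lower), against 30.4% and 30.0% of all tested genes. Lif did not pass the filter on low counts. The median log2 fold change of the 9 genes was 2.24 in intra-C and 1.03 in intra-S livers against sham, beside 0.01 and 0.04 over all tested genes. Il6 and Osm passed the filter through their counts in tumor livers, so these summaries are descriptions only. Both comparisons used the same sham livers and are not independent of each other. In whole-liver RNA, a change in the number of cells that express a gene cannot be told apart from a change in RNA per cell.

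**Figure D1:**
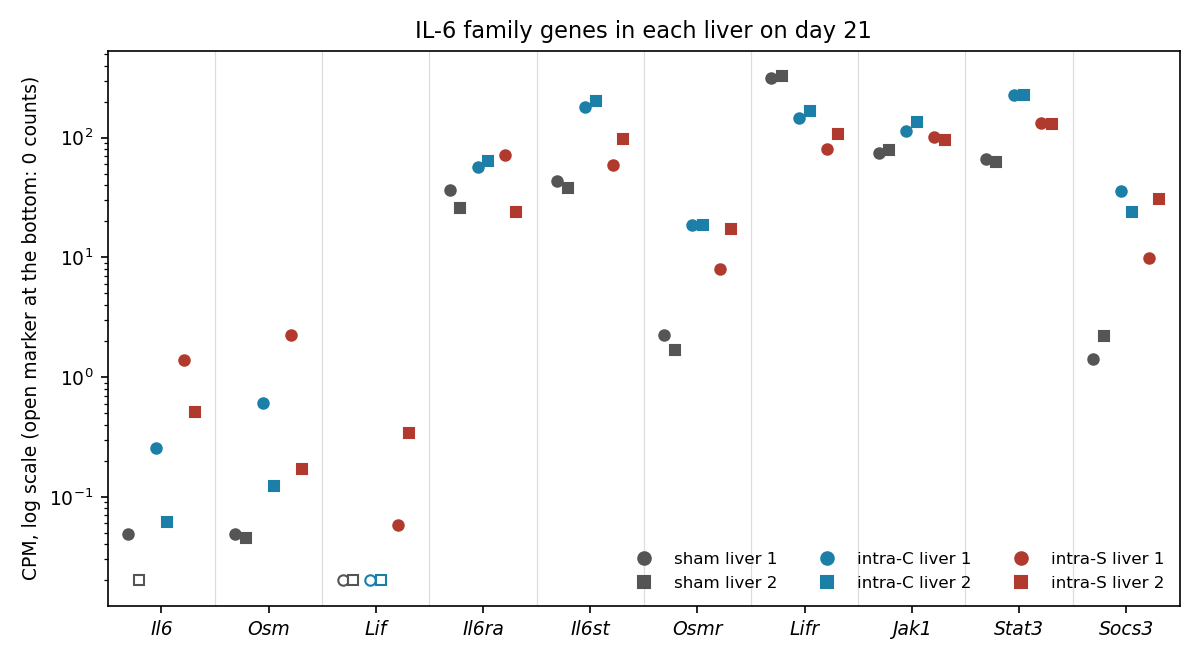
CPM of the 10 genes in each of the 6 livers on a log axis, with color for group, circles for liver 1 and squares for liver 2, and open markers at the bottom for livers with 0 counts. Osmr and Socs3 lie higher and Lifr lower in all 4 tumor livers than in both sham livers.

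The ligand genes were the scarcest members in every group. Il6 (chromosome 5, 30013114 to 30019975; all positions of genes are RefSeq coordinates on GRCm38.p6) had 2 and 0 counts in sham livers, 10 and 2 in the intra-C livers and 48 and 21 in the intra-S livers. Both intra-S livers were above all others, while intra-C liver 2 had the same count as sham liver 1. The summed counts of the intra-S livers, divided by depth, were 39.0 times those of the sham livers (95% exact counting interval 10.4 to 328), and those of the intra-C livers were 7.10 times (1.58 to 65.4). These intervals cover counting error only. Across livers, edgeR's quasi-likelihood test gave 5.14 ± 1.35 (log2 fold change ± standard error, SE; adjusted p = 0.0601) in intra-S and 2.60 ± 1.41 (adjusted p = 0.288) in intra-C livers, so neither was called. With so few sham counts, the size of these fitted values depends on the prior count of the fit. The intra-S difference passed the threshold in DESeq2 (adjusted p = 0.00498) and in the fit with the replicate number as a block (0.0445). It also did in limma on log2 TPM (0.0446 and 0.0333 with pseudocounts of 1 and 0.1), but not in edgeR with only the 2 groups compared (0.0857). Il6 entered the test through its counts in tumor livers, so its p-values are descriptions only. With a liver left out, the intra-S value lay between 4.19 (without sham liver 2) and 8.19 (without sham liver 1). The intra-C value lay between 1.26 (without intra-C liver 1) and 5.65 (without sham liver 1).

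Osm (chromosome 11, 4236785 to 4241026) encodes a cytokine made by myeloid and T cells. It had 2 counts in each sham liver, 24 and 4 in the intra-C livers and 77 and 7 in the intra-S livers. The tumor livers did not overlap with sham, but liver 1 of each tumor group carried most of the group's reads, with a 13.1-fold gap in CPM between the intra-S livers. The depth-scaled ratio to sham was 23.7 (counting interval 8.93 to 89.1) in intra-S and 8.29 (2.90 to 32.5) in intra-C livers. In edgeR's test the log2 fold changes of 4.58 (SE 1.51, adjusted p = 0.102) and 2.90 (SE 1.51, adjusted p = 0.272) were not called. DESeq2 called Osm in intra-S livers (adjusted p = 0.0117). Osm entered the test through its counts in tumor livers, so its p-values are descriptions only. The intra-S value was 1.80 without intra-S liver 1 and 5.48 without intra-S liver 2. The intra-C value was 1.33 without intra-C liver 1 and 3.63 without intra-C liver 2.

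Lif (chromosome 11, 4257568 to 4272514), which begins 16.5 kb after the end of Osm, had 0 counts in both sham and both intra-C livers and 2 and 14 counts in the intra-S livers. Against the floor of 3 counts per library, its mean CPM in intra-S livers was at least 2.83-fold higher than in sham and at least 2.37-fold higher than in intra-C livers, a value that rests mainly on liver 2. It was not tested. The ligands thus did not have their highest value in the same intra-S liver, since Il6 and Osm were higher in liver 1 and Lif in liver 2.

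Markers of myeloid cells were higher in the tumor groups. All 13 neutrophil markers were tested, and 12 were called higher in intra-C and 13 in intra-S livers, a count that is a description only, because several of them passed the filter on low counts through the tumor livers. Their summed level, led by S100a9, was 3.94 and 5.48 CPM in sham livers, with Camp, Mpo and Elane at 0 in both, 298 and 657 CPM in the intra-C livers and 1119 and 442 CPM in the intra-S livers. The liver with more Osm RNA had more neutrophil marker RNA in the intra-S group and less in the intra-C group. Of the 10 monocyte and macrophage markers, led by Lyz2, 5 were called higher in each tumor group, with sums of 55.7 to 61.5 CPM in sham, 243 to 357 CPM in intra-C and 267 to 368 CPM in intra-S livers. Of 6 tested T and NK cell markers and 6 tested B and plasma cell markers, none was called against sham in either tumor group in edgeR. At an unadjusted p under 0.05 there were 0 and 2 of them in intra-C livers and 2 and 0 in intra-S livers, and DESeq2 called 1 T and NK cell marker higher in intra-S livers. T and NK cell markers, led by Cd4, summed to 2.33 to 2.98 CPM in sham, 3.46 to 4.64 CPM in intra-C and 6.45 to 6.97 CPM in intra-S livers, and B and plasma cell markers, led by Jchain, to 6.78 to 9.35, 7.33 to 8.82 and 5.28 to 17.5 CPM. All 6 tested erythroid markers, led by Hbb-bs, were called higher in intra-S livers (1179 to 1700 CPM against 223 to 401 CPM in sham) and none in intra-C livers, also at an unadjusted p under 0.05 in edgeR and in DESeq2 (255 to 402 CPM). Of 6 proliferation markers, led by Mki67, 2 were called higher in intra-C (27.6 to 35.4 CPM) and 5 in intra-S livers (69.8 to 80.8 CPM), from 9.01 to 15.1 CPM in sham. The part of these cells in the ligand levels was not tested.

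Among the receptor chains, Lifr was called lower and Osmr higher in both tumor groups. Lifr was the most abundant of the 10 genes in sham livers, and in both tumor groups it ranked below Stat3, Il6st, Jak1 and Il6ra by mean TPM. Neighbors in this order overlapped for Il6ra and Il6st in sham livers, for Jak1 and Il6ra in intra-C livers and for each step from Jak1 down to Osmr in intra-S livers. Il6 and Osm overlapped in every group, as did Il6 and Lif in sham livers. Lifr (chromosome 15, 7090610 to 7197489) had 314 and 328 CPM in sham livers, 145 and 168 CPM in the intra-C livers and 80.0 and 107 CPM in the intra-S livers. The 3 groups did not overlap. Lifr was called lower in intra-C livers, at a log2 fold change of -1.04 ± 0.23 (SE; adjusted p = 0.0457 in edgeR), and in intra-S livers, at -1.78 ± 0.23 (adjusted p = 0.0110), that is 2.05-fold and 3.44-fold lower. The intra-C value had an adjusted p of 0.0543 once replicate number entered the fit as a block.

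Osmr (chromosome 15, 6813568 to 6874968) moved the other way. It had 2.24 and 1.70 CPM in sham livers, 18.6 CPM in each intra-C liver and 8.05 and 17.1 CPM in the intra-S livers. All 4 tumor livers were above both sham livers, and intra-S liver 1 was the lowest of the 4. Osmr was called higher in intra-C livers (log2 fold change 3.24, SE 0.41, adjusted p = 0.0130 in edgeR) and in intra-S livers (log2 fold change 2.68, SE 0.40, adjusted p = 0.0154), which are changes of 9.42-fold and 6.40-fold. The intra-S value was 3.13 without intra-S liver 1 and 2.03 without intra-S liver 2. With only the 2 groups compared, the intra-S difference was not called (adjusted p = 0.0555 in edgeR).

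Il6st, the gp130 gene (chromosome 13, 112464070 to 112506860), had 43.4 and 38.2 CPM in sham livers, 181 and 203 CPM in the intra-C livers and 59.6 and 96.6 CPM in the intra-S livers. The groups did not overlap, with intra-C highest and sham lowest. Il6st was called 4.71-fold higher in intra-C livers (log2 fold change 2.24, SE 0.28, adjusted p = 0.0130 in edgeR). In intra-S livers its log2 fold change of 0.94 (SE 0.27, adjusted p = 0.0778) was not called, although it passed in DESeq2 (adjusted p = 0.0246) and without either intra-S liver (0.00358 and 0.0466).

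Il6ra, the gene of the chain that is specific to IL-6 (chromosome 3, 89869324 to 89913196), had 36.6 and 26.1 CPM in sham livers, 57.4 and 63.5 CPM in the intra-C livers and 71.5 and 24.1 CPM in the intra-S livers. The highest and the lowest of the 6 values were the intra-S livers, 2.97-fold apart. Its log2 fold change against sham was 0.95 (SE 0.48, adjusted p = 0.262 in edgeR) in intra-C and 0.61 (SE 0.48, adjusted p = 0.437) in intra-S livers. In the fit without intra-S liver 1 the intra-S value turned to -0.37 (adjusted p = 0.325), and without intra-S liver 2 it was 1.19 (adjusted p = 0.00707). The intra-C difference passed only in fits that left out an intra-S liver or both (adjusted p between 0.0110 and 0.0118).

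By length-scaled level, Lifr was 67.4 ± 1.97 TPM in sham, 28.9 ± 4.36 TPM in intra-C and 16.03 ± 3.99 TPM in intra-S livers (SD, n = 2 each). Il6st was 16.8 ± 1.55 TPM, 69.7 ± 9.03 TPM and 26.4 ± 10.1 TPM in the same order, and Osmr was 0.751 ± 0.148 TPM, 6.22 ± 0.288 TPM and 3.96 ± 2.19 TPM. The ratio of Lifr to Osmr TPM was 77.1 and 106 in sham livers, 4.29 and 4.98 in the intra-C livers and 5.48 and 3.42 in the intra-S livers. The 4 tumor livers thus lay in a range far below both sham livers, and Lifr RNA still exceeded Osmr RNA in each of them. Of the summed TPM of the 4 receptor chains, Il6st was 16.4% and 15.3% in sham livers, 49.6% and 49.8% in the intra-C livers and 26.7% and 47.0% in the intra-S livers. Il6ra was 51.7% of that sum in intra-S liver 1 and 18.9% in intra-S liver 2, so these livers differed in which chain was most abundant. No test was run on these shares.

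**Figure D2:**
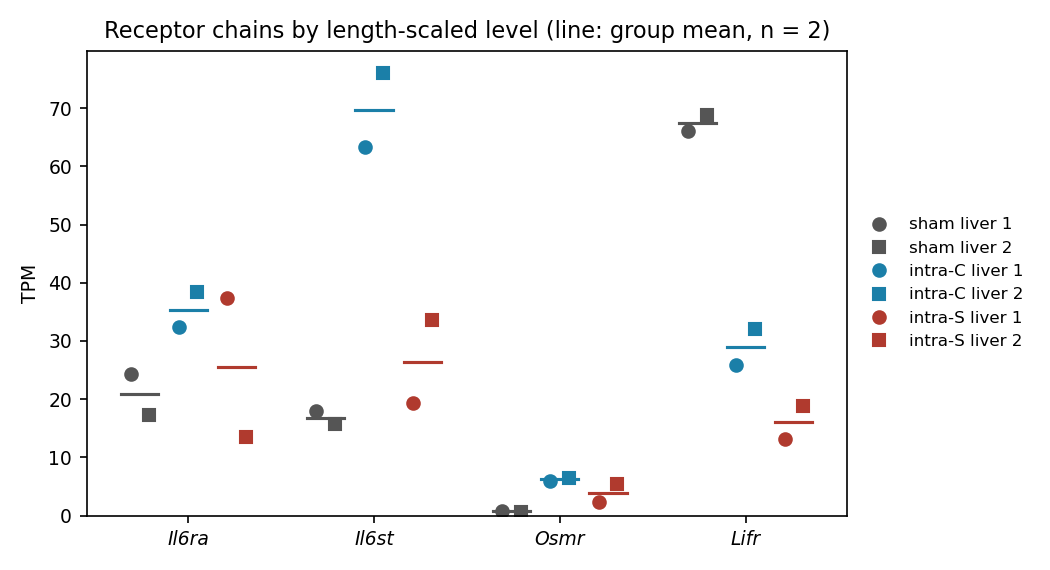
TPM of the 4 receptor chains in each liver (circles for liver 1, squares for liver 2, color for group), with a line at each group mean. Lifr is highest in sham, Il6st is highest in intra-C, and the intra-S livers lie apart for Il6ra, at 37.4 and 13.5 TPM.

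Osmr and Lifr lie 215.6 kb apart on chromosome 15 and were called in opposite directions. Around them, within 600 kb, 4 other protein-coding genes were tested. Dab2, which encodes an endocytic adaptor, was called higher in intra-C (log2 fold change 1.48, adjusted p = 0.0382 in edgeR) and in intra-S livers (1.34, adjusted p = 0.0397). C9, a terminal complement component, was called in intra-C (1.48, adjusted p = 0.0184) and not in intra-S livers (0.16, adjusted p = 0.646). Fyb, an adaptor of hematopoietic cells, was also called in intra-C livers (2.13, adjusted p = 0.0366) and had a log2 fold change of 1.63 (adjusted p = 0.0547) in intra-S livers. Neither C9 (adjusted p = 0.285) nor Fyb (adjusted p = 0.599) was called between the tumor groups. Rictor, the mTORC2 subunit next to Osmr, was called in neither group, with log2 fold changes of 1.08 (adjusted p = 0.120) and 0.86 (adjusted p = 0.165). Lifr was the only tested gene of this interval that was called lower. The size of the interval was chosen after the values of both receptor genes were known.

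**Figure D3:**
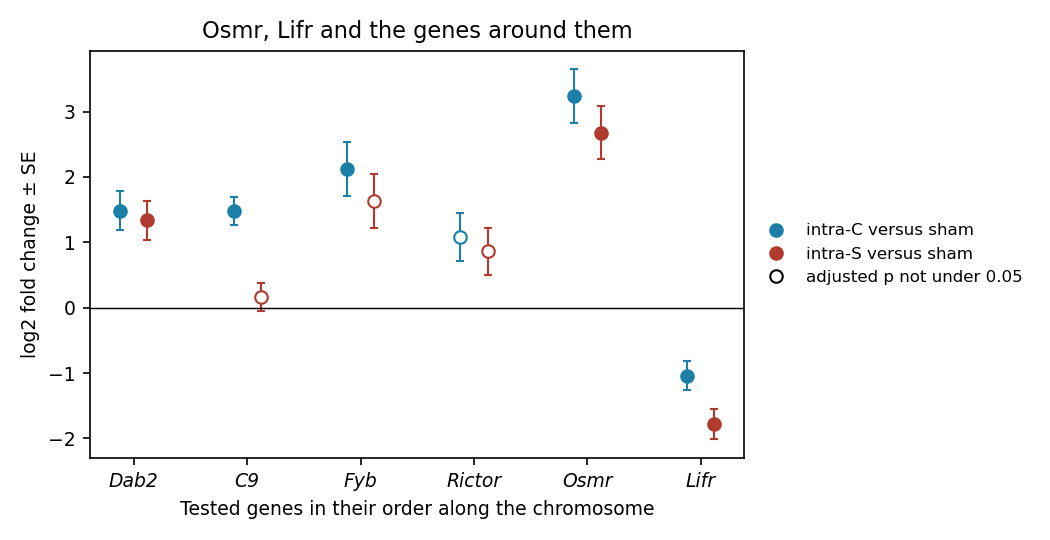
Log2 fold change against sham, with its standard error, of the 6 tested genes of the interval in their order along chromosome 15, blue for intra-C and red for intra-S, with open markers where the adjusted p was not under 0.05. The values of Dab2 to Osmr are above 0 and those of Lifr are below 0.

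Over the 6 livers, the 3 genes with the log2 CPM most like that of Osmr, out of 9283 genes with at least 5 CPM on average, were Golm1 (Pearson r = 0.998), Vsig4 (r = 0.997) and Marchf1 (r = 0.996). Vsig4 is a Kupffer cell receptor. For Il6ra they were Mpp5 (r = 0.997), Cnot2 and Slu7 (r = 0.993 each), for Stat3 Cyp3a13 and Tifa (r = 0.998 each) and Map1lc3b (r = 0.996), and for Socs3 Calu (r = 0.996), Apcs and Hacd3 (r = 0.994 each). These correlations describe 6 libraries of 3 groups and carry no test. The 8 Kupffer cell markers, led by Clec4f, were all called higher in intra-C livers and 7 of them in intra-S livers. Their sum was 198 CPM in each sham liver, 922 and 1103 CPM in the intra-C livers and 580 and 1103 CPM in the intra-S livers, and within the intra-S group the liver with the higher sum also had the higher Osmr level, whereas the intra-C livers had the same Osmr level at different sums. Of the 8 endothelial markers, 4 were called higher in each tumor group (sums of 113 to 122 CPM in sham and 237 to 368 CPM in the tumor livers), and of the 11 stellate cell and fibroblast markers, 0 were called in intra-C (3 at an unadjusted p under 0.05 in edgeR, with 2 called higher and 1 lower by DESeq2) and 4 in intra-S livers (252 to 265 CPM in sham, 296 to 327 CPM in intra-C and 418 to 484 CPM in intra-S livers). The part of these cells in the receptor levels was not tested.

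Jak1, the kinase bound to gp130 (chromosome 4, 101151974 to 101265282), varied least. It had 74.7 and 78.5 CPM in sham livers, 115 and 135 CPM in the intra-C livers and 102 and 96.1 CPM in the intra-S livers. Neither tumor group overlapped with sham, yet its log2 fold changes of 0.70 (SE 0.19, adjusted p = 0.0789 in edgeR) and 0.37 (SE 0.19, adjusted p = 0.249) were not called. The intra-C difference passed in DESeq2 (adjusted p = 0.0151), with only the 2 groups compared (0.0115) and without intra-S liver 1 (0.0108) or 2 (0.0121).

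Stat3 (chromosome 11, 100886806 to 100939594) had 67.0 and 62.4 CPM in sham livers, 229 and 226 CPM in the intra-C livers and 134 and 130 CPM in the intra-S livers. The 3 groups were separate and the livers of each group lay close together, at most 1.07-fold apart, also in the intra-S group. Stat3 was called 3.52-fold higher in intra-C livers (log2 fold change 1.82, SE 0.19, adjusted p = 0.00785 in edgeR) and 2.04-fold higher in intra-S livers (log2 fold change 1.03, SE 0.18, adjusted p = 0.0236). With only the 2 groups compared, the intra-S difference was not called (adjusted p = 0.0674 in edgeR). In TPM Stat3 was the most abundant of the 10 genes in both tumor groups. Scaling by library totals without TMM lowers the median of all tested genes by 0.26 and 0.27 log2 units in intra-C and intra-S livers against sham, and under it the intra-S value of Stat3 was 0.75 (adjusted p = 0.0537). The share of calls that were higher also depended on this scaling: 806 genes were called higher and 389 lower in intra-C livers with TMM, against 569 and 801 without it, and 1110 and 646 in intra-S livers, against 838 and 1115.

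Socs3 (chromosome 11, 117966079 to 117970336) had 1.40 and 2.22 CPM in sham livers, 36.1 and 24.1 CPM in the intra-C livers and 9.86 and 31.0 CPM in the intra-S livers. All 4 tumor livers were above sham, and the intra-S livers were 3.14-fold apart, with liver 1 lowest among the tumor livers. Socs3 was called 16.6-fold higher in intra-C livers (log2 fold change 4.05, SE 0.61, adjusted p = 0.0195 in edgeR) and 11.2-fold higher in intra-S livers (log2 fold change 3.49, SE 0.60, adjusted p = 0.0213). The intra-S value was 4.09 without intra-S liver 1 and 2.44 without intra-S liver 2. With only the 2 groups compared, the intra-S difference was not called (adjusted p = 0.0608 in edgeR). Socs3 TPM was 2.66% and 4.51% of Stat3 TPM in sham livers, 20.0% and 13.5% in the intra-C livers and 9.36% and 30.2% in the intra-S livers. Feedback inhibitor RNA therefore stood higher relative to Stat3 RNA in each tumor liver than in either sham liver.

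The calls against sham depended on which livers entered the fit. Without either sham or either intra-C liver, the family's calls between intra-C and sham livers were lost, as were nearly all calls over all genes. Log2 fold changes were then 1.77 to 1.87 for Stat3 and 3.73 to 4.42 for Socs3. Without either sham liver, all calls between intra-S and sham livers were lost, of members and of other genes. Lifr was then at log2 fold changes of -1.81 and -1.75. Without either intra-C liver only Lifr of the family stayed called, and calls over all genes fell too. The 4 calls between intra-S and sham livers held without either intra-S liver. Other members joined them there, while calls over all genes rose as well. In these fits 1 group has a single liver, which is assumed to vary like the others.

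**Figure D4:**
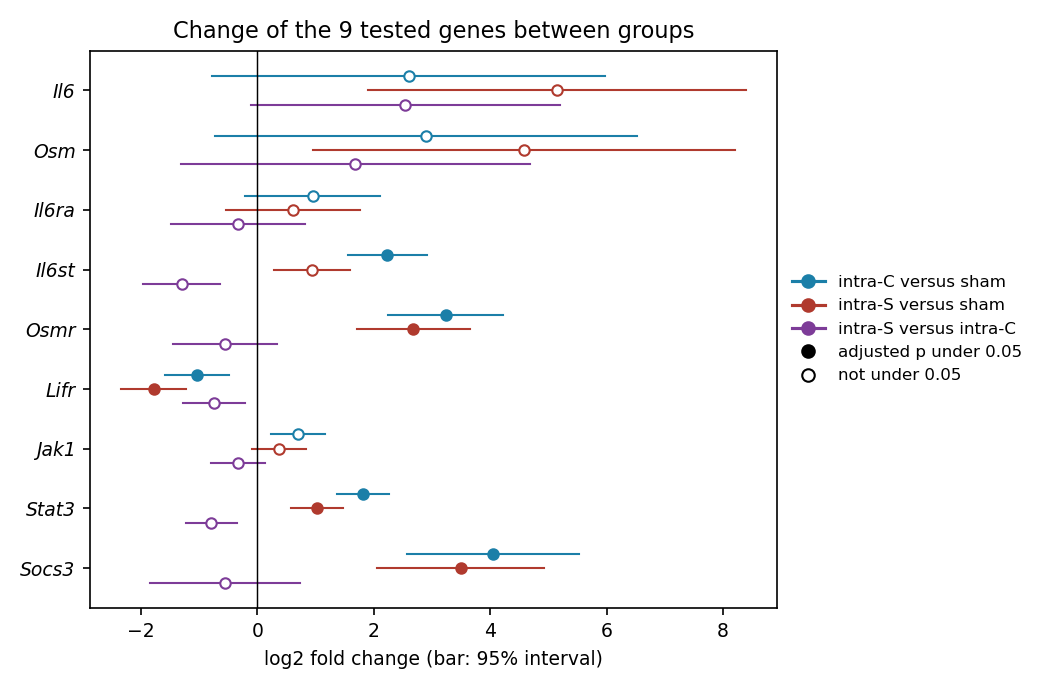
Log2 fold change (points) with its 95% interval (bars) of the 9 tested genes in the 3 comparisons, filled where the adjusted p was under 0.05. Osmr, Stat3 and Socs3 lie above 0 and Lifr below 0 in both comparisons with sham, and no point of intra-S versus intra-C is filled.

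Socs3 is the textbook STAT3 target and was called in both tumor groups. Sequences near a transcript start of 4 members, Socs3 among them, are therefore printed. They were taken from RefSeq promoter windows (GRCm38.p6) and are written 5′ to 3′ on the strand of the gene, with motif matches in capitals. For Stat3, Il6st and Il6 the bases lie outside the RefSeq gene and outside exons of the GENCODE vM21 annotation. The Socs3 window belongs to a start site at 117969366, which is 970 bases inside the outermost RefSeq start of the gene, so only its motif with 10 bases on each side is shown, which lies in no GENCODE exon. The positions are chr11:117969502-117969530 (minus strand) for Socs3, chr11:100939595-100939790 (minus strand) for Stat3, chr13:112463820-112464069 (plus strand) for Il6st and chr5:30012864-30013113 (plus strand) for Il6.
Socs3: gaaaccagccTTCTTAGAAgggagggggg
Stat3: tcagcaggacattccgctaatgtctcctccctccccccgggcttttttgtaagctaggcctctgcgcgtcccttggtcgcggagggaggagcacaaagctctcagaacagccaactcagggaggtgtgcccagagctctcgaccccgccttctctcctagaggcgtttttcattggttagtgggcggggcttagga
Il6st: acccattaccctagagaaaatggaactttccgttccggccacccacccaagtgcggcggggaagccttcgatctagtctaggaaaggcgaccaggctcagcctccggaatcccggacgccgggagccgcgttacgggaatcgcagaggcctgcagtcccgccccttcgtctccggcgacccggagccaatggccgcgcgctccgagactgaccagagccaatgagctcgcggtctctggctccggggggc
Il6: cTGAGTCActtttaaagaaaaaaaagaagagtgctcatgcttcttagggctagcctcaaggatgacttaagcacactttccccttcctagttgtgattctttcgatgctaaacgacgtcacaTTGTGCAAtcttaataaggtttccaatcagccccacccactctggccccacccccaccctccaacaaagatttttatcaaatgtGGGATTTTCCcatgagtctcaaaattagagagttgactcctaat

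The letters searched on both strands of the 250 bases before the start site of each window were TTCNNNGAA for STAT, GGGNNTTTCC for NF-kB, TTGCNNAA for C/EBP, TGANTCA for AP-1 and TGACGTCA for CRE, a site of CREB factors. Windows were found for 9 of the 10 genes, and those of Osmr, Lifr, Jak1, Stat3 and Socs3 start inside the outermost RefSeq gene span. Socs3 was the only one with the STAT letters, from base -154 to base -146 before the start site of its window, and 7.02% of all 32851 windows hold them. The Il6 window held NF-kB letters (-44 to -35), C/EBP letters (-128 to -121, on the other strand) and AP-1 letters (-249 to -243), which occur in 1.41%, 9.56% and 6.75% of all windows. The windows of Stat3, Il6st, Il6ra, Osmr and Lifr held none of the 5 motifs. Lif held AP-1 letters and Jak1 held CRE letters, the latter in 1.55% of all windows. All 250 bases of the Il6ra and Osmr windows lie in exons of the GENCODE vM21 annotation. A match describes letters, not binding.

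Other genes of the pathway were described by list, beside the 7.30% and 10.7% of all tested genes called in intra-C and intra-S livers. In the main edgeR fit, none of the 4 tested of 9 other ligand genes was called against sham. The same held for the 3 tested of 4 other receptor genes. At an unadjusted p under 0.05 there was 1 gene of each list in each tumor group. DESeq2 called 1 of these receptor genes lower in intra-C livers, and edgeR with only the 2 groups compared called 1 there. Leaving out an intra-S liver also gave calls in these lists, while calls over all genes rose. Ctf1, the cardiotrophin-1 gene, had 4.11 and 5.18 CPM in sham livers, 3.44 and 2.88 CPM in the intra-C livers and 2.74 and 3.14 CPM in the intra-S livers. Of 9 other JAK and STAT genes only Jak3, a kinase of the common gamma chain receptors, was called, higher in intra-C (log2 fold change 1.44, adjusted p = 0.0221 in edgeR) and in intra-S livers (1.20, adjusted p = 0.0276). Stat5a had 27.2 CPM in intra-S liver 1 against 2.06 to 11.6 CPM in the other 5 livers. Stat5a shares exon bases with Stat3 on the opposite strand (72 bases), as Gm42809 does with Il6ra (242 bases) and Raver2 with Jak1 (4 bases). The sources used here do not say whether counting used strand. Ctf1 and Stat5a were named after their values were seen.

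Of 13 tested inhibitor genes, 1 was called higher in each tumor group. Ptpn1, a phosphatase of JAK kinases, was called in intra-C livers (log2 fold change 1.44, adjusted p = 0.0406 in edgeR) and Ptpn2, a phosphatase of JAK and STAT proteins, in intra-S livers (1.33, adjusted p = 0.0319). Whether these differ between the tumor groups is not shown, since neither was called between them. Of 7 genes for receptor shedding and the SHP2 branch, 3 were called in intra-C and 2 in intra-S livers. Adam17, a protease that sheds IL-6R, was called in intra-C livers (log2 fold change 0.98, adjusted p = 0.0368) and not in intra-S livers (0.46, adjusted p = 0.165), nor between the tumor groups (-0.52, adjusted p = 0.349). Adam10, a related protease, was called in both (0.94, adjusted p = 0.0433, and 1.18, adjusted p = 0.0206), as was the docking protein gene Gab2 (2.69, adjusted p = 0.04998, and 3.22, adjusted p = 0.0281). The calls of the JAK and STAT, inhibitor and shedding lists were all lost without either sham liver or either intra-C liver, where calls over all genes also fell. They reached more genes when an intra-S liver was left out, as calls over all genes did.

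Genes that respond to STAT3 were divided into regulators and secreted liver proteins. Of 16 regulators, 5 were called higher in intra-C livers and 7 higher and 1 lower in intra-S livers, with median log2 fold changes of 1.22 and 1.44. The intra-C calls were lost without either sham or either intra-C liver and rose without either intra-S liver. In intra-S livers the calls were lost without either sham liver, fell without either intra-C liver and rose without intra-S liver 2. Calls over all genes moved in the same directions. In intra-C livers, the values of those called ran from Mcl1 (0.91, adjusted p = 0.0441 in edgeR), a survival factor, and Il4ra (1.38, adjusted p = 0.0440) to Il1r1 (2.39, adjusted p = 0.0236), an interleukin-1 receptor, and the AP-1 subunit Junb (2.41, adjusted p = 0.0368). In intra-S livers they ran from Bcl6 (-1.65, adjusted p = 0.0361), a transcriptional repressor, and Mcl1 (0.89, adjusted p = 0.0381) to Junb (3.57, adjusted p = 0.0133) and Fos (6.42, adjusted p = 0.0259). Fos had 51.6 CPM in intra-S liver 1 and 5.37 CPM in intra-S liver 2, against 0.246 and 0.407 CPM in sham livers.

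Of the 16 secreted proteins, 14 were called higher in intra-C and 15 higher and 1 lower in intra-S livers, with median log2 fold changes of 3.13 and 3.03. These counts are descriptions, since A2m and Timp1 passed the filter on low counts through the tumor livers. All calls were lost without either sham liver, as over all genes. Fewer were left in intra-C livers without either intra-C liver. Lrg1, the leucine-rich glycoprotein the study follows, had 69.6 and 79.3 CPM in sham livers, 1012 and 1091 CPM in the intra-C livers and 622 and 892 CPM in the intra-S livers (log2 fold changes of 3.82, adjusted p = 0.00543, and 3.35, adjusted p = 0.00469, in edgeR). A2m, a protease inhibitor, had 0.0739 and 0 CPM in sham livers and 103 to 229 CPM in the tumor livers. Saa2, an acute phase apolipoprotein, had 7.39 and 32.1 CPM in sham, 6063 and 10866 CPM in intra-C and 182 and 5268 CPM in intra-S livers. The smallest called rise was that of Crp, with log2 fold changes of 1.34 (adjusted p = 0.0214) and 0.94 (adjusted p = 0.0403), and Lbp was next to it in intra-C livers (2.74, adjusted p = 0.00580). Hamp, the hepcidin gene, was called lower in intra-S livers (log2 fold change -9.54, adjusted p = 0.00965), from 537 and 536 CPM in sham to 0.437 and 0.981 CPM. In intra-C livers it had 65.3 and 464 CPM (log2 fold change -1.02, adjusted p = 0.463). As for Socs3, the lower value of Saa2 within the intra-S group was that of liver 1.

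Between the tumor groups, no member and no other gene was called in edgeR's test, where the smallest adjusted p of all 16370 genes was 0.113. At an unadjusted p under 0.05 there were 2193 genes (13.4%), of which Il6st, Stat3 and Lifr belong to the family. The livers did not overlap in 6 of the 9 genes (1 higher, 5 lower in intra-S), beside 21.9% and 21.5% of all tested genes. Il6st was 2.46-fold lower in intra-S than in intra-C livers (log2 fold change -1.30, 95% interval -1.96 to -0.64, unadjusted p = 0.00266, adjusted p = 0.285). Stat3 was 1.73-fold lower (-0.79, interval -1.23 to -0.35, unadjusted p = 0.00425, adjusted p = 0.285), and Lifr 1.68-fold lower (-0.74, interval -1.29 to -0.20, unadjusted p = 0.0144, adjusted p = 0.303). The intervals of Osmr (-1.45 to 0.34) and Socs3 (-1.84 to 0.72) held 0. DESeq2 called 524 genes, among them Il6st (adjusted p = 0.00598) and Stat3 (adjusted p = 0.00770). In edgeR, members were called only when intra-S liver 2 was left out, a fit in which calls over all genes rose as well. Over the alternatives, the log2 fold change lay between -1.69 and -0.99 for Il6st and between -0.90 and -0.77 for Stat3.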

How the data were processed

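Bulk liver RNA of 6 livers was analyzed. Per the labels and the study's methods, the authors aligned reads to mm10 with HISAT2 2.1.0, counted uniquely mapped exon reads with featureCounts of Subread 2.0.6 and deposited raw counts per gene and TPM values calculated from them. The annotation and the use of strand are not given in the sources used here. Both tables list 20140 genes with every column mapped to a liver by its name.

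Groups were compared by the quasi-likelihood method of edgeR 4.0.16 in R 4.3.3 (TMM, filterByExpr with a count minimum of 10, 1 fit of 6 livers, Benjamini-Hochberg adjustment over 16370 genes), checked on simulated counts. CPM on the log2 scale used a prior count of 2. Counting intervals are exact at 95%. The 15 alternatives included DESeq2 1.42.0, limma 3.58.1 on log2 TPM, other filters and scalings, a replicate block and each liver left out. The members and gene lists were chosen with earlier results of these data known. The text names all members, Lrg1 and every called gene of a pathway list with up to 4 of them. Where more were called, it names the 2 largest and the 2 smallest by log2 fold change, at 1 CPM or more. Of most marker lists described it names the most abundant marker. Sequences are from RefSeq. Motifs were searched with Python 3.11.15.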

Additional observations from a re-analysis of the deposited data

How the results depend on the processing

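Among the comparisons with sham, the log2 fold changes of the family kept their direction under each of the 15 alternatives that gave a value, except that of Il6ra, which was -0.37 in intra-S livers without intra-S liver 1, with values up to 1.19 when other livers were left out. Between intra-S and intra-C livers, leaving out each liver in turn gave -1.10 to 3.25 for Osm and -1.61 to 0.041 for Socs3, both turning without intra-S liver 1, and -1.33 to 0.24 for Il6ra, turning without intra-S liver 2. The cause was not tested. Il6 and Osm have no value under the filter of 10 counts in every liver, nor, in some comparisons, with only the 2 groups compared. The number of members called in intra-C livers (5) lay between 0 and 7 when a liver was left out. In intra-S livers (4), it was 7 with DESeq2, 1 with only the 2 groups compared and between 0 and 8 when a liver was left out. Between the tumor groups (0), it was 2 with DESeq2 and between 0 and 5 when a liver was left out. Over all genes, the calls in intra-C livers (1195) were 2819 with DESeq2, 4771 with only the 2 groups compared and 0 to 4658 with a liver left out. In intra-S livers (1756) they were 3530, 392 and 0 to 5693, and between the tumor groups (0) they were 524 with DESeq2 and 0 to 2884 with a liver left out.

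The replicate numbers did not pair the livers: deviations from the group means correlated at -0.03, 0.08 and 0.04 between groups. Fitted with a replicate block, 4, 5 and 0 members were called in the 3 comparisons. Il6, Osm and Lif had at most 77 counts in any liver, so that depth as well as the spread between 2 livers limits what can be said of them.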
